A study of Mus musculus with 20 samples.

Results

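The genes described here encode 8 surface proteins by which mouse haematopoietic stem cells and multipotent progenitors are recognised and sorted: Kit, Flt3, Tek, Slamf1, Cd48, Cd34, Procr and Esam. They were given as a list, which was chosen with earlier results of these data known. All 8 were found among the 46078 gene IDs of the table, and all 8 were among the 14176 genes tested, which had a mean of at least 1 TPM (transcripts per 1000000, an abundance corrected for gene length). RNA came from the LSK fraction of bone marrow (depleted of lineage markers, then gated for cKIT and SCA1) of C57Bl/6J mice aged 3 to 4 months. The mutant groups were Idh1R132H, Idh2R140Q and Idh2R172K, each a heterozygous conditional allele behind a loxP-flanked stop with Vav-Cre, and Tet2KO, which is Tet2-/- with no Cre in its label. The control group, WT, carried Vav-Cre on a wild-type background, so the Idh groups and WT share the recombinase, while Cre and loss of Tet2 cannot be told apart in Tet2KO against WT. Vav-Cre acts in blood-forming cells. Each group had 4 libraries, and each library was a pool of 2 mice, so a value is the average of a pool and not of a mouse.

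KIT is the receptor for stem cell factor and, with Sca1, defines the LSK gate. Within that gate stem cells are known as FLT3-negative, CD48-negative and CD150-positive (CD150 is the product of Slamf1), and adult mouse stem cells carry little CD34. EPCR (Procr), ESAM and TIE2 (Tek) are high on stem cells, whereas FLT3 and CD48 come up as cells turn into multipotent and lymphoid-primed progenitors. The LSK fraction holds all of these cells, so in these bulk samples a changed share of a cell type and a changed amount of RNA per cell cannot be told apart. RNA levels are also not the surface protein levels that a sort reads.

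The libraries held 35.1 to 45 M assigned reads (M = 1000000; median 39.1), as recovered from the TPM values. Tet2KO replicate 2 and the number 4 libraries of WT and of the 3 Idh groups stood apart from the rest. In Tet2KO replicate 2 the most abundant gene, Gm23935, took 20.02% of TPM, against 7.56 to 8.13% in those number 4 libraries and 9.57 to 13.5% in the other 15 libraries. The same library had lower values for genes with long exons, and values without it are given where they change a call or a direction. Tet2 RNA summed over the whole gene averaged 9.91 ± 2.86 TPM in Tet2KO and 7.50 ± 1.17 TPM in WT (SD, n = 4 each), but no label says which exons were removed, so this sum checks nothing about the deletion. Idh1 and Idh2 carry point mutations that a gene-level value does not show.

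On GRCm38 (mm10), Kit (ENSMUSG00000005672) lies on chr5:75574916-75656722 and Flt3 (ENSMUSG00000042817) on chr5:147330741-147400489. Tek (ENSMUSG00000006386) lies on chr4:94739289-94874976, Procr (ENSMUSG00000027611) on chr2:155751117-155755471 and Esam (ENSMUSG00000001946) on chr9:37528078-37538319. Chromosome 1 holds the other three, Cd48 (ENSMUSG00000015355) at chr1:171682009-171705258, Slamf1 (ENSMUSG00000015316) at chr1:171767127-171801184 and Cd34 (ENSMUSG00000016494) at chr1:194938819-194961279. Values are sums over the exons of each gene.

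In WT, Cd48, Cd34, Kit and Flt3 were abundant and the markers of the rarest cells were not. Cd48 averaged 629 TPM, Cd34 493, Kit 391 and Flt3 267 TPM, which placed them above 96.05 to 98.88% of the genes tested. Esam averaged 42.6 TPM, Procr 26.1 and Tek 19 TPM, above 70.39, 58.73 and 51.39% of tested genes. Slamf1 stood lowest at 3.26 ± 0.673 TPM (SD, n = 4), above only 20.61% of tested genes, and rested on 106 to 347 reads per library over all groups. Ly6a, which encodes the Sca1 antigen of the gate, averaged 168 ± 18.6 TPM. Kit and Ly6a, the genes of both positive gates, were thus present in every library.

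**Figure D1:**
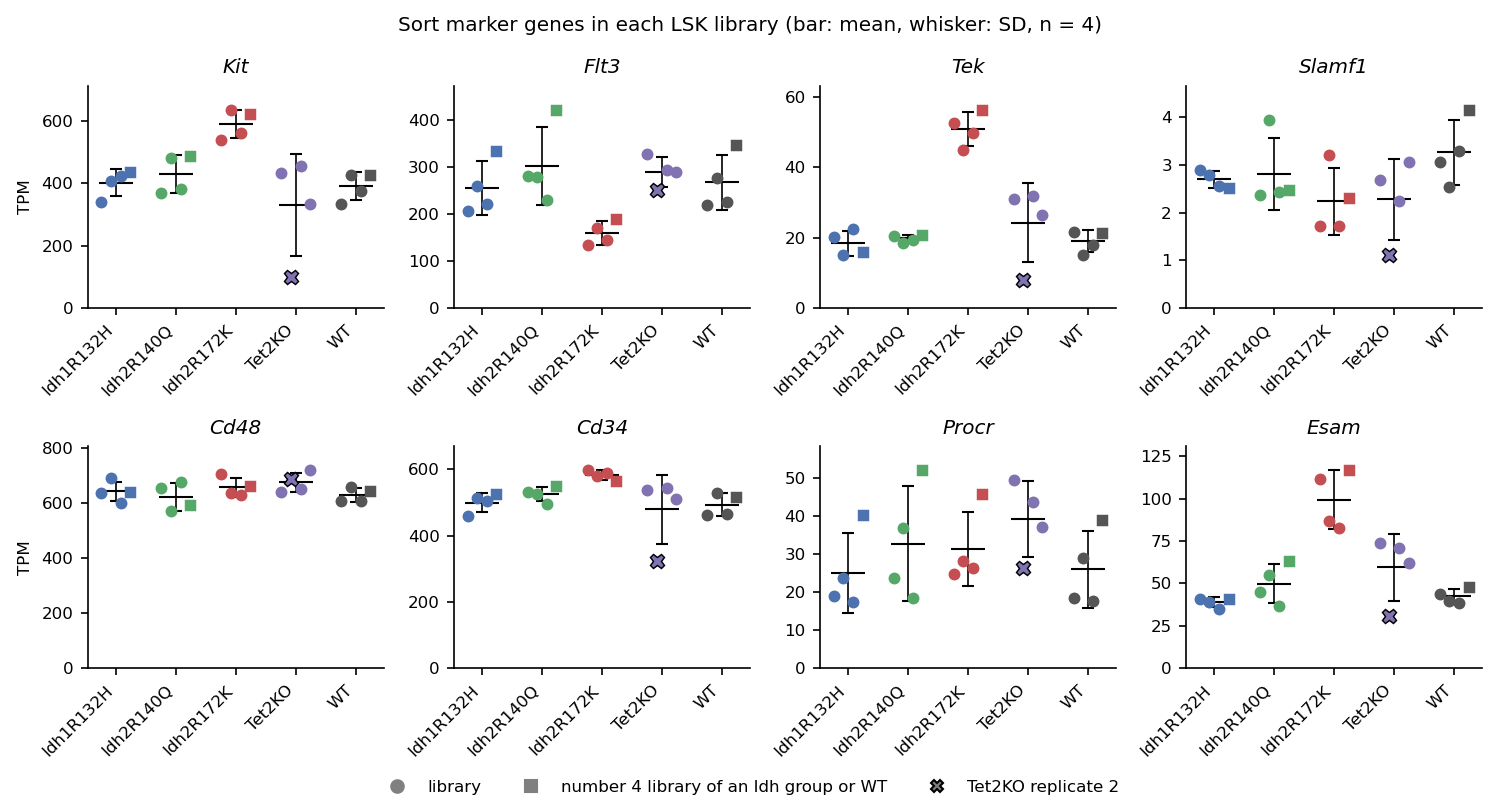
TPM (y axis, from 0) of the 8 sort marker genes in each of the 20 libraries, by group; the long bar is the group mean and the whisker the SD (n = 4). Squares are the number 4 libraries of WT and the Idh groups, and the cross is Tet2KO replicate 2. That library is the lowest for Kit (97.9 TPM), Tek (7.88), Esam (30.7), Cd34 (323.5) and Slamf1 (1.11). Esam, Tek, Kit and Cd34 stand above all other groups in Idh2R172K, and Flt3 below.

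Idh2R172K was the group in which these genes differed most from WT. Esam and Tek, both high on stem cells, were higher in Idh2R172K, and Flt3, the marker of multipotent and lymphoid-primed progenitors, was lower. These 3 of 8 genes (37.5%) passed the threshold of an adjusted p under 0.05 (limma on log2(TPM + 1), one fit of all 5 groups), beside 15.4% of all genes tested in the same comparison (8.03% higher and 7.33% lower). Kit and Cd34 lay above WT in every library but did not pass, and Slamf1, Cd48 and Procr did not pass either. Their directions did not all follow the same split of cells. Slamf1, a stem cell marker, was lower (-0.41), and Cd34, of which adult stem cells carry little, was higher (0.24). Cd48 (0.06) changed little, and Procr, another stem cell marker, was at 0.29. Groups that do not overlap were found for 4 genes above WT and 1 below, where 13.0% and 9.83% of all tested genes stand. The median difference of the 8 genes was 0.26 on the log2 scale, beside 0.11 over all tested genes.

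Among the receptor tyrosine kinases, Tek changed most. Tek encodes TIE2, the receptor for angiopoietins, which is shared by stem cells and endothelium. It stood at 52.5, 44.8, 49.6 and 56.3 TPM in the Idh2R172K libraries, against 21.7, 15.0, 17.9 and 21.3 TPM in WT. Every Idh2R172K library was thus above all WT libraries, and the difference was 1.38 ± 0.29 on the log2 scale (SE; 95% interval 0.78 to 1.99; adjusted p = 0.00258). The mean was 2.67 times that of WT.

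Flt3 encodes the receptor for FLT3 ligand. It stood at 135, 169.5, 144 and 189.9 TPM in the Idh2R172K libraries, against 219, 277, 226 and 346 TPM in WT. All Idh2R172K libraries lay below all WT libraries. Flt3 fell by 0.73 on the log2 scale (SE 0.19; 95% interval -1.12 to -0.33; adjusted p = 0.0122), to 0.598 times the WT mean. In WT and in each Idh group the number 4 library had the highest Flt3 value, and without these libraries the difference from WT was -0.68 (adjusted p = 0.0034).

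The upstream sequences of these 2 genes are shown because Tek and Flt3 moved in opposite directions and their starts differ in CpG content. They are the 250 bases before the RefSeq start of each gene (GRCm38.p6), 5′ to 3′ on the gene's strand, with every CG in capitals. The Tek stretch is chr4:94739039-94739288 on the plus strand and the Flt3 stretch chr5:147400490-147400739 on the minus strand.
Tek: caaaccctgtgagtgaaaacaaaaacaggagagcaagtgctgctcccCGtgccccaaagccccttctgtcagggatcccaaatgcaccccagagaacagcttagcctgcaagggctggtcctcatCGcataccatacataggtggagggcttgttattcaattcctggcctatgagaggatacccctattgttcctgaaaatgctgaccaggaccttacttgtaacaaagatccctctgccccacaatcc
Flt3: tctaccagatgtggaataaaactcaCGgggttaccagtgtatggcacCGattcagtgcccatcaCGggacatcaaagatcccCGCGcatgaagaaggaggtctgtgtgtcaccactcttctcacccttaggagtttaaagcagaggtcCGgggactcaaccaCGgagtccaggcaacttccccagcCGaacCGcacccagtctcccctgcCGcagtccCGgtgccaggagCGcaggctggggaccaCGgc
The Flt3 stretch holds 13 CG and the Tek stretch 2, beside a median of 6 over 32851 mouse promoters of the same length. Of those promoters 68.46% have fewer CG than Flt3 and 18.82% fewer than Tek. The table holds a promoter for 7 of the 8 genes, not for Esam, and the other counts were 17 CG for Kit, 13 for Procr, 6 for Cd34, 4 for Cd48 and 3 for Slamf1. On either strand, a GATA motif (AGATAA) was in none of the 7 and in 9.988% of all promoters, and a RUNX motif (TGTGGT) was only in that of Cd48 among the 7 and in 14.05% of all. An ETS motif (AGGAAG) was in those of Kit, Cd34 and Slamf1 and in 29.48% of all. An E-box (CANNTG) was in 5 of the 7 (those of Flt3, Tek, Slamf1, Cd48 and Procr) and in 66.22% of all promoters. These are letter matches in a window and not tested sites. In Idh2R172K against WT, Kit (17 CG) was 0.60 higher and Procr (13) 0.29 higher. Cd34 (6) differed by 0.24, Cd48 (4) by 0.06 and Slamf1 (3) by -0.41. None of these passed with all 20 libraries. Tek and Flt3 were picked after their values were seen, and a link between CG count and direction was not tested.

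Kit showed no call against WT in the fit of all 20 libraries, although the groups did not overlap. It stood at 541, 636, 562 and 622 TPM in the Idh2R172K libraries, against 335, 426, 375 and 427 TPM in WT, a ratio of means of 1.51. The log2 difference of 0.60 ± 0.32 (SE) had a 95% interval of -0.07 to 1.26 and an adjusted p of 0.226. The spread that the 5 groups share held Tet2KO replicate 2, with its Kit value of 97.9 TPM. Without that 1 library the same difference of 0.60 had an SE of 0.12 and an adjusted p of 0.00151, and Kit counted as called. The library had the lowest Kit of all 20, so leaving it out by itself narrows the spread. This p-value is thus no separate support. Kit was called in 4 of 33 other ways of running the comparison, and in 1 of the 20 that left out 1 library. Cd34 behaved in the same way.

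Cd34 encodes a sialomucin of progenitor and endothelial cells. It stood at 597, 579, 588 and 564 TPM in the Idh2R172K libraries, against 463, 529, 464 and 516 TPM in WT. The groups did not overlap, but the difference was small, at 0.24 ± 0.12 on the log2 scale (SE; 95% interval -0.01 to 0.49; adjusted p = 0.192). Without Tet2KO replicate 2, which had the lowest Cd34 of all 20 libraries, its adjusted p was 0.00441. Cd34 was called in 4 of 33 other ways of running the comparison. With that library left out 5 of the 8 genes passed, beside 23.7% of all tested genes. Some exon bases of Cd34 are shared with the antisense gene Gm16897, which had a mean of 6 TPM; whether the counting used strand is not given in the sources used here.

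Esam encodes an adhesion molecule of the immunoglobulin superfamily found at endothelial junctions and on stem cells. It stood at 112, 86.9, 82.4 and 117 TPM in the Idh2R172K libraries, against 44.0, 39.8, 38.6 and 48.0 TPM in WT. All Idh2R172K libraries lay above all WT libraries, by 1.19 ± 0.22 on the log2 scale (SE; 95% interval 0.73 to 1.65; adjusted p = 0.000814). The mean was 2.33 times that of WT. The adjusted p for Esam stayed between 2.28e-06 and 0.00811 over 33 other ways of running the comparison, while that of Tek ranged to 0.0231 and that of Flt3 to 0.0447.

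Procr encodes EPCR, the endothelial protein C receptor. It stood at 24.9, 28.3, 26.4 and 45.8 TPM in the Idh2R172K libraries, against 18.5, 29.2, 17.6 and 39.1 TPM in WT. The groups overlapped, and the highest value in both was the number 4 library. The difference was 0.29 ± 0.33 on the log2 scale (SE; 95% interval -0.41 to 0.98; adjusted p = 0.614).

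Slamf1 and Cd48 encode the SLAM family receptors of the CD150 and CD48 sort. Slamf1 stood at 1.73, 3.21, 1.72 and 2.31 TPM in the Idh2R172K libraries, against 3.06, 2.55, 3.29 and 4.16 TPM in WT. The difference of -0.41 ± 0.20 on the log2 scale (SE; 95% interval -0.82 to 0.01; adjusted p = 0.187) did not pass; with the trend on exon length removed from each library its adjusted p was 0.0391. Cd48 stood at 705, 636, 627 and 660.3 TPM in the Idh2R172K libraries, against 608, 656, 608 and 644 TPM in WT. It differed by 0.06 ± 0.07 (SE), with a 95% interval of -0.08 to 0.20, the narrowest of the 8 genes.

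The genes around Slamf1 and Cd48 on chromosome 1 form the SLAM family cluster, and Ly9, which encodes the receptor CD229 of the same family, differed far more than both. Ly9 stood at 1.65, 1.56, 1.98 and 2.46 TPM in the Idh2R172K libraries, against 26.0, 23.4, 26.3 and 51.8 TPM in WT. All Idh2R172K libraries lay below all WT libraries, and the log2 difference was -3.43 ± 0.24 (SE; adjusted p = 1.3e-08). Of the neighbours, Cd244a (0.10), Slamf7 (-0.05) and Cd84 (-0.30; adjusted p = 0.165, and 0.0434 without Tet2KO replicate 2) did not pass. Slamf6, of the same family, was under the level for testing, at 0.0909 to 0.174 TPM in Idh2R172K and 0.647 to 1.44 TPM in WT, without overlap. Vangl2 (0.67) and Alyref2 (0.33) outside the family passed. Cd244a encodes the receptor for CD48, and Ly9 lies inside its span on the opposite strand. The neighbours were taken by position, and those outside the family were named after their values were seen.

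**Figure D2:**
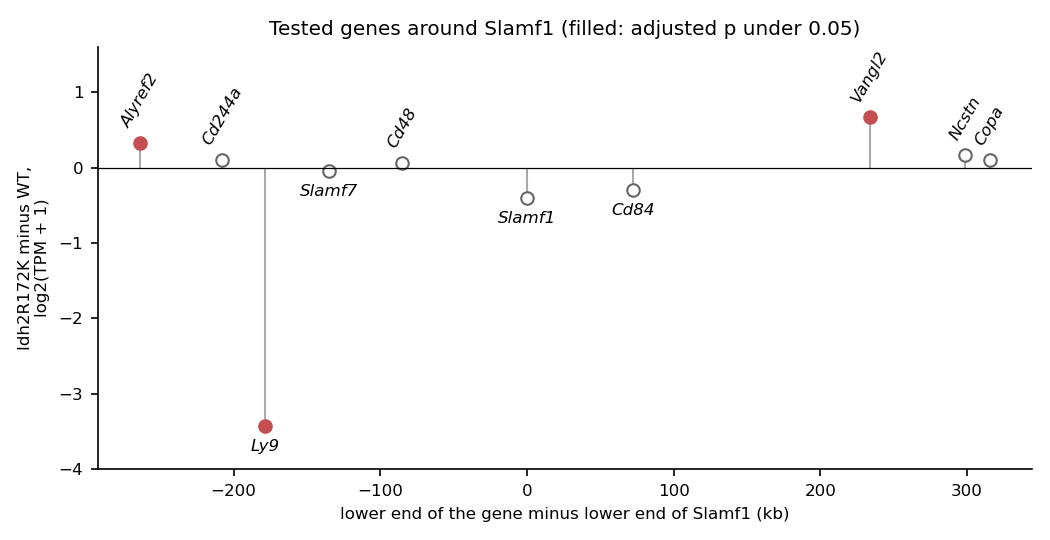
Difference between Idh2R172K and WT in log2(TPM + 1) (y axis) of the tested genes around Slamf1, by distance from Slamf1 in kb (x axis); filled points have an adjusted p under 0.05. Ly9 stands at -3.43 while Cd48 (0.06) and Slamf1 (-0.41) stay near 0.

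In Tet2KO none of the 8 genes passed against WT (limma), where 7.05% of all tested genes did (5.02% higher and 2.02% lower), and none had an unadjusted p under 0.05. With the rebuilt read counts in limma-voom the count was likewise 0, given here without the share of all tested genes in that fit. The values of the 4 pools show that the count rests on replicate 2. Esam stood at 73.9, 30.7, 71.0 and 61.9 TPM in the Tet2KO libraries, and 3 of them were above all WT libraries (38.6 to 48.0 TPM) and the other was below them all. Tek stood at 30.9, 7.88, 31.7 and 26.5 TPM in Tet2KO, against 15.0 to 21.7 TPM in WT, with the same pattern.

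Without replicate 2, Esam was 0.68 ± 0.16 (SE) higher in Tet2KO than in WT on the log2 scale (adjusted p = 0.0199) and Tek 0.63 ± 0.14 higher (adjusted p = 0.017). With all 4 pools the differences were 0.40 (adjusted p = 0.252) for Esam and 0.18 (adjusted p = 0.714) for Tek. That makes 2 of 8 genes called without the library, beside 7.04% of all tested genes. Without it, the 3 remaining Tet2KO pools lay above all 4 WT pools for these 2 genes and for 16.9% of all tested genes. Replicate 2 was the lowest Tet2KO pool for both genes. Leaving it out by itself widens both differences from WT, so their p-values without it are no separate support. Both differences were smaller than in Idh2R172K: Tet2KO was lower than Idh2R172K for Esam by 0.51 on the log2 scale (adjusted p = 0.028) and for Tek by 0.75 (adjusted p = 0.000919), again without replicate 2.

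Kit stood at 432, 97.9, 456 and 334 TPM in the Tet2KO libraries, against 335 to 427 TPM in WT. The groups overlapped, and the difference was -0.45 ± 0.32 (SE; adjusted p = 0.368) with replicate 2 and 0.06 ± 0.13 (SE; 95% interval -0.22 to 0.33; adjusted p = 0.816) without it. Cd34 stood at 538, 324, 545 and 510.1 TPM in Tet2KO, against 463 to 529 TPM in WT, and its difference was -0.07 with replicate 2 and 0.11 without it. The direction of both genes thus turns on 1 library, and neither passed in either fit.

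Procr stood at 49.7, 26.3, 43.7 and 37.1 TPM in the Tet2KO libraries, against 18.5, 29.2, 17.6 and 39.1 TPM in WT. The difference of 0.61 ± 0.33 (SE; adjusted p = 0.249) did not pass, nor did that of 0.78 without replicate 2 (adjusted p = 0.175). Of all libraries in WT and the Idh groups, those with the number 4 had the highest Procr, at 39.1 to 52.2 TPM, against 17.4 to 36.9 TPM with the other numbers. Set against WT numbers 1 to 3 only, Tet2KO was 0.82 higher (adjusted p = 0.0375), and 0.99 higher when replicate 2 was left out as well (adjusted p = 0.00575). Both fits left out the WT pool highest for Procr and kept number 4 of Tet2KO, and the latter also left out the lowest Tet2KO pool. That choice by itself widens the difference, so these p-values are no separate support for it. Flt3 (0.14), Cd48 (0.10) and Slamf1 (-0.41) did not pass in Tet2KO against WT, with adjusted p of 0.671, 0.352 and 0.197; with the same 5 libraries left out, Flt3 was 0.34 higher (adjusted p = 0.0465).

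**Figure D3:**
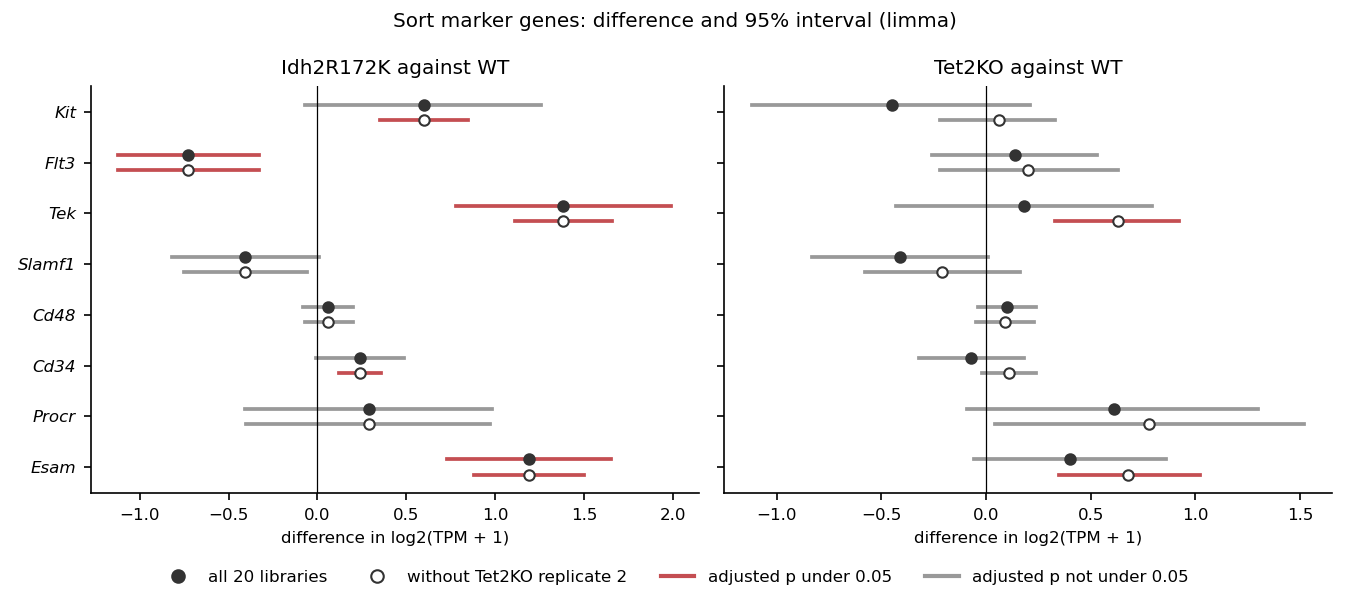
Difference in log2(TPM + 1) (x axis) with its 95% interval for Idh2R172K against WT (left) and Tet2KO against WT (right), with all 20 libraries (filled points) and without Tet2KO replicate 2 (open points); red intervals have an adjusted p under 0.05. In Idh2R172K the points do not move while the intervals of Kit, Cd34, Tek and Esam narrow, and in Tet2KO Esam and Tek pass only without that library (0.68 and 0.63).

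Replicate 2 of Tet2KO departed from the other 3 pools in a way that followed exon length. The median gene of 500 to 1000 exon bases was 0.21 higher in it on the log2 scale, and that of 4000 to 8000 bases was 0.63 lower. Kit, with 8911 exon bases, was 2.03 lower than in the other pools, against a median of -0.72 for its length class; only 0.253% of the genes in that class were lower still. Tek was 1.78 lower and Esam 1.14 lower, with 0.441% and 2.33% of their classes beyond them.

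The other genes kept to their class more closely. Cd34 was 0.71 lower, with 43.7% of its class beyond it, and Slamf1 0.79 lower, with 37.8%. Procr was 0.70 lower, with 19.8% beyond it, and Flt3 0.27 lower. Cd48, the shortest gene of the 8 with 1189 exon bases, differed by 0.04. With the length trend removed from every library, Kit had a log2 value of 7.35 in replicate 2 and of 8.51 to 8.78 in the other Tet2KO pools, whereas Cd34 had 9.03 and 9.01 to 9.09.

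Ly6a did not share the fall of Kit. It stood at 274, 350.2, 271 and 272 TPM in the Tet2KO libraries, so that replicate 2 was the highest, against 149 to 185 TPM in WT. Ly6a was 0.79 higher in Tet2KO on the log2 scale (adjusted p = 0.001) and 0.70 higher without replicate 2 (adjusted p = 0.0021). In Idh2R172K it stood at 115, 144, 141 and 122 TPM and was 0.36 lower than in WT (adjusted p = 0.0317), a call that ended when replicate 1 or 2 of WT or 1 or 4 of Idh2R172K was left out (adjusted p = 0.0912 to 0.101) and with median-of-ratios scaling (0.0934), among other settings.

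**Figure D4:**
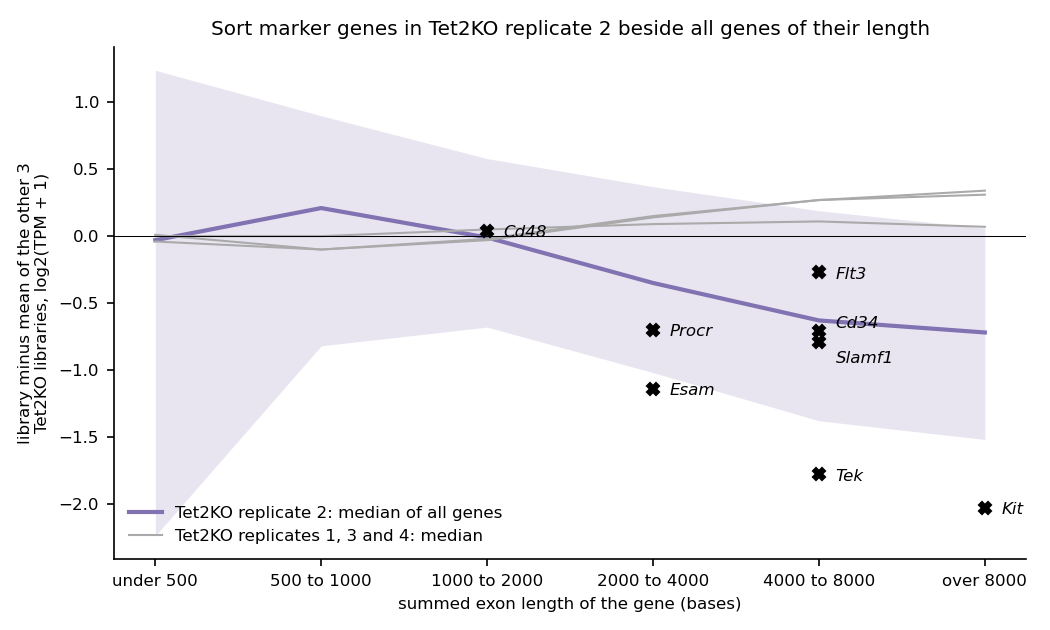
Deviation of each Tet2KO library from the mean of the other 3 Tet2KO libraries in log2(TPM + 1) (y axis), by exon length of the gene in bases (x axis); lines are medians over all tested genes, the band holds 5 to 95% of genes in replicate 2, and crosses are the sort marker genes in replicate 2. Kit (-2.03), Tek (-1.78) and Esam (-1.14) lie under the band, and the other 5 genes lie in it.

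Markers of other cells gave no single direction in Tet2KO replicate 2. Summed over 14 mature myeloid markers it held 903 TPM, against 945 to 1007 TPM in the other Tet2KO pools, and over 11 T and NK markers 913 TPM, against 805 to 887. The 10 red cell markers summed to 144 TPM, against 108 to 145, and the 9 B lineage markers to 131, against 113 to 131. The 16 endothelial markers summed to 176 TPM, against 209 to 210, the 11 mast cell and basophil markers to 496, against 661 to 768, and the 10 stroma markers to 40.9, against 107 to 140. The T and NK sum was thus above the other pools, those of red cells and B lineage within their range, and the others under it. Single genes make up most of these sums, such as Lyz2 (663 of 903 TPM) and Nkg7 (848 of 913 TPM). C1qa (37.1 TPM), C1qb (62.8), Klrb1c (7.30) and Gzma (2.65) had their highest value of all 20 libraries in replicate 2. So did genes of other lists, among them Egfl7 (106.5 TPM), Cldn5 (2.197), Cd79b (100.6), Hbb-bs (22.57) and Hba-a1 (17.7). Other genes of the myeloid list were below their mean over the 20 libraries, such as Itgam (11.9 TPM, mean 33.47) and S100a8 (20.24 TPM, mean 35.43). The part of other cells in the Kit value was not tested.

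Tek, Esam and Procr are also genes of endothelium, so its markers were read beside the rise of Tek and Esam in Idh2R172K. The 16 endothelial markers summed to 152 to 192 TPM (median 163) in Idh2R172K and to 161 to 231 TPM (median 190.3) in WT. Of the 7 tested, Emcn (-0.69) and Vwf (-1.35) fell and none rose. The endothelial cadherin Cdh5 averaged 0.0539 TPM over the 20 libraries, and Lyve1, Sox17 and Ptprb were listed at 0 in 18, 16 and 10 of them. The 10 stroma markers summed to 260 to 326 TPM in Idh2R172K and 73.8 to 123 TPM in WT, nearly all of it Pdgfrb (mean 144 TPM over the 20 libraries). Pdgfrb (1.64) and Sparc (2.12), the 2 tested, both rose, while Col1a1, Col3a1, Cxcl12, Lepr, Pdgfra and Dcn averaged 0.00718 to 0.122 TPM.

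The other 5 lists gave smaller or mixed values in Idh2R172K and WT. T and NK markers summed to 728 to 817 TPM in Idh2R172K and 799.5 to 1021 TPM in WT, with 3 of 5 tested genes lower. B lineage markers summed to 41.0 to 118 TPM in Idh2R172K and 96.0 to 114 TPM in WT, with 2 of 6 higher and 2 lower. Red cell markers summed to 49.6 to 74.7 TPM in Idh2R172K and 68.9 to 109 TPM in WT, with 3 of 10 lower. Mature myeloid markers overlapped, with 1 of 14 higher and 1 lower, and of the mast cell and basophil markers 1 of 7 was higher and 3 were lower. The counts of these lists and of the endothelial and stroma lists stand beside 8.03% of all tested genes higher and 7.33% lower. The part of any of these cells in the changes of the sort markers was not tested.

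Neither Idh1R132H nor Idh2R140Q had a called difference from WT in any of the 8 genes. No gene passed in limma and none had an unadjusted p under 0.05, and over all genes tested 0.00705% passed in Idh1R132H and 0.0% in Idh2R140Q. Esam stood at 40.6, 39.3, 35.0 and 40.9 TPM in Idh1R132H and at 44.8, 55, 36.5 and 63.1 TPM in Idh2R140Q, against 44.0, 39.8, 38.6 and 48.0 TPM in WT. Tek stood at 20.1, 15.0, 22.4 and 15.8 TPM in Idh1R132H and at 20.5, 18.6, 19.4 and 20.6 TPM in Idh2R140Q, against 21.7, 15.0, 17.9 and 21.3 TPM in WT. Both groups overlapped WT for both genes.

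Their Kit values were 341, 408, 424 and 438 TPM in Idh1R132H and 370.0, 480.2, 383 and 487 TPM in Idh2R140Q, within or above the WT range of 335 to 427 TPM. Flt3 stood at 206, 259, 221 and 335 TPM in Idh1R132H and at 280.0, 278, 229 and 421 TPM in Idh2R140Q, against 219 to 346 TPM in WT. The 95% intervals against WT were -0.66 to 0.56 for Tek and -0.58 to 0.34 for Esam in Idh1R132H, and -0.54 to 0.67 and -0.26 to 0.66 in Idh2R140Q. These intervals do not reach the differences measured in Idh2R172K, nor do those of Flt3 (-0.46 to 0.33 in Idh1R132H and -0.23 to 0.56 in Idh2R140Q). Those of Kit, at -0.62 to 0.71 and -0.53 to 0.8, hold the 0.60 of Idh2R172K. The intervals of Cd34, Slamf1, Cd48 and Procr likewise hold the values of Idh2R172K, so a difference of that size is not excluded for these genes. The median difference of the 8 genes was -0.05 in Idh1R132H and 0.11 in Idh2R140Q, beside 0.04 and 0.08 over all tested genes.

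The other genes also overlapped WT. Cd34 ranged over 458 to 524 TPM in Idh1R132H and 496 to 549 TPM in Idh2R140Q, against 463 to 529 TPM in WT, and Cd48 over 601 to 688 and 569 to 674 TPM, against 608 to 656 TPM. Procr ranged over 17.4 to 40.3 TPM in Idh1R132H and 18.5 to 52.2 TPM in Idh2R140Q, against 17.6 to 39.1 TPM in WT. Slamf1 ranged over 2.52 to 2.90 TPM in Idh1R132H and 2.38 to 3.94 TPM in Idh2R140Q, against 2.55 to 4.16 TPM in WT. None of these groups was separate from WT.

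Between mutant groups, 10 differences passed over the 6 pairs of groups. Idh2R172K had higher Esam and Tek and lower Flt3 than Idh1R132H, where 13.5% of all tested genes passed, and than Idh2R140Q, where 10.5% passed. Esam was higher by 1.32 (adjusted p = 0.000339) and 0.99 (adjusted p = 0.00477), and Tek by 1.44 (adjusted p = 0.00194) and 1.32 (adjusted p = 0.00458). Flt3 was lower by 0.66 than in Idh1R132H (adjusted p = 0.0238) and by 0.89 than in Idh2R140Q (adjusted p = 0.0032). The call against Idh1R132H ended without Idh1R132H replicate 2 or 4 or Idh2R172K replicate 1 or 3, with adjusted p of 0.0581 to 0.0816.

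Tet2KO against Idh2R172K gave the other 4 calls, beside 26.8% of all tested genes. Flt3 was higher in Tet2KO by 0.86 on the log2 scale (adjusted p = 0.00322), with 250 to 327 TPM in Tet2KO, against 135 to 189.9 TPM in Idh2R172K. Kit (-1.05, adjusted p = 0.022), Esam (-0.79, adjusted p = 0.0144) and Tek (-1.20, adjusted p = 0.00637) were lower in Tet2KO. Without replicate 2 all 4 still passed, beside 23.1% of all tested genes, and Kit was lower by 0.54 (adjusted p = 0.00628). In a fit of only these 2 groups with all libraries, Kit, Esam and Tek did not pass (adjusted p = 0.147, 0.101 and 0.0853). The call of Kit also ended without Idh2R172K replicate 2 (0.0542) or 4 (0.0503). No gene passed in Tet2KO against Idh1R132H, against Idh2R140Q, or in Idh2R140Q against Idh1R132H, where 13.5%, 9.54% and 0.00705% of all tested genes did. Without Tet2KO replicate 2, Esam (0.81, adjusted p = 0.00606) and Tek (0.68, adjusted p = 0.00743) were higher in Tet2KO than in Idh1R132H, beside 11.3% of tested genes. Tek was also higher than in Idh2R140Q (0.56, adjusted p = 0.0303), beside 5.57%. Leaving out that library, the lowest Tet2KO pool for both genes, by itself widens these differences.

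Over the 5 groups Esam, Tek and Flt3 showed a difference by the F test of limma (adjusted p = 0.00176, 0.00536 and 0.00937), which is 3 of 8 genes beside 23.1% of all tested genes. In the order of group means, Esam and Tek ran Idh2R172K, Tet2KO, Idh2R140Q, WT and Idh1R132H, and only the step from Idh2R172K to Tet2KO passed. Flt3 ran Idh2R140Q, Tet2KO, WT, Idh1R132H and Idh2R172K, and only the last step passed. For the other 5 genes no step between neighbours passed.

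The genes whose pattern was most like that of each marker were read by Pearson's r of log2(TPM + 1) over the 20 libraries, as a description; the points share groups, length trend and depth. Esam went with Plscr4 (r = 0.966) and Tie1 (0.965), the partner receptor of TIE2. Tek went with Mctp1 (0.95), Arhgap28 (0.945) and Slc7a8 (0.942). Flt3 went with Cd72 (0.964), Jakmip1 (0.961) and Ighd (0.943), of which Cd72 and Ighd are genes of B cells. Procr went with Dennd1c (0.942), Mfng (0.938) and Prickle3 (0.936). After group means were subtracted these values were 0.84 to 0.95.

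The nearest genes of Kit were Cmtm6 (0.983), Nynrin (0.983) and Klhl24 (0.981), and without Tet2KO replicate 2 their r was 0.93 to 0.96. Those of Cd34 were Vhl (0.966), Adgrg1 (0.962) and Cdc42se2 (0.962), and without that library they had 0.88 to 0.89. Cd48 and Slamf1 had no close match, with 0.746 for Vps29 and 0.787 for Gca at the top.

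Lists of related genes were counted beside the sort markers. With all 20 libraries, their counts in Idh2R172K stand beside 8.03% of all tested genes higher and 7.33% lower, and those in Tet2KO beside 5.02% and 2.02%. Counts without Tet2KO replicate 2 stand beside 23.7% of all tested genes in Idh2R172K and 7.04% in Tet2KO, in either direction. Of 17 tested other stem cell surface genes, 4 rose and 3 fell in Idh2R172K, with a median of 0.07 beside 0.11 over all tested genes. Cd82, a tetraspanin, was lower by 0.63 (adjusted p = 0.00189), and Cxcr4, the receptor for CXCL12, by 0.38 (adjusted p = 0.0153), a call that ended without WT replicate 2 (adjusted p = 0.0606) or Idh2R172K replicate 4 (0.0521). In Tet2KO, Ly6a was the gene of this list that passed, and without replicate 2 the list had 2 calls. The other Idh groups had 0 calls in the list.

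Of 12 lymphoid-primed genes 2 fell and none rose in Idh2R172K, a share near the 15.4% of all tested genes. Cd27, a receptor of the tumour necrosis factor family, was lower by 0.89 (adjusted p = 0.000119). Without Tet2KO replicate 2, 2 genes of this list rose as well. The median of the list was 0.0. Of 12 myeloid progenitor genes 5 fell and none rose, with a median of -0.61; without Tet2KO replicate 2, 6 fell and 2 rose. Clec12a, a myeloid lectin receptor, was lower by 1.38 (adjusted p = 7.57e-07), with 24.3, 29.3, 27.0 and 23.4 TPM in Idh2R172K, against 69.4, 56.9, 78.3 and 73.8 TPM in WT. The Fc receptors Fcgr3 (-0.86) and Fcgr2b (-0.65) fell too, the last with overlapping groups and without a call when only the 2 groups were fitted (adjusted p = 0.053), without the number 4 libraries (0.114), or without WT replicate 4 (0.0634) or Idh2R172K replicate 1 (0.0615).

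Of 12 megakaryocyte and erythroid progenitor genes, 3 fell and 2 rose in Idh2R172K (median -0.32). Rhag (-1.95) and Epor (-1.20), genes of the erythroid line, fell, while Selp (2.29) and Itga2b (1.10), both expressed in megakaryocytes, rose. Other megakaryocyte genes of the list did not pass, with Gp1bb at -0.62, F2rl2 at -0.26 and Gp9 at -0.11. In Tet2KO 3 genes of the list fell and none rose, with Rhag lower than in WT by 0.74 (adjusted p = 0.0138) and Epor by 0.52 (0.0228). Those calls of Rhag and Epor ended in a fit of only Tet2KO and WT (adjusted p = 0.0963 and 0.146) and without WT replicate 3 (0.0541 and 0.07), and without Tet2KO replicate 2 the differences were -0.66 and -0.43. Of the 10 red cell markers, 5 were higher in Tet2KO than in WT and 2 lower, with a median of 0.53; without replicate 2, 4 were higher, Hbb-bt no longer passing, and 2 lower. Those higher were Alas2 (0.71), the first enzyme of haem synthesis in red cells, and the globin genes Hbb-bs (1.11), Hba-a2 (1.16), Hbb-bt (0.93) and Hba-a1 (0.79), whose near-identical copies may share reads. The red cell markers summed to 108 to 145 TPM in Tet2KO and 68.9 to 109 TPM in WT, and their part in the other values was not tested. In the lymphoid list Cd52 passed in Tet2KO (0.92, adjusted p = 0.00664; 0.0963 in a fit of only these 2 groups). Cd52 stood at 310, 569 (replicate 2), 309 and 307 TPM in Tet2KO, and without replicate 2 it was 0.70 higher than in WT (adjusted p = 0.00513).

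The ligand and signalling partners of the receptors were read next. Of 24 tested genes of KIT and FLT3 signalling, 3 rose and 1 fell in Idh2R172K (median 0.34), again near the 15.4% of all tested genes. Socs3, a feedback inhibitor of cytokine receptors, was higher by 1.87 (adjusted p = 7.63e-05), with 61.8, 101, 74.1 and 114 TPM in Idh2R172K, against 22.1, 18.8, 21.9 and 28.6 TPM in WT. Dusp6, a phosphatase that acts on ERK kinases, was lower by 1.51 (adjusted p = 0.000414), and Pim1, a kinase induced by cytokines, was higher by 0.88 (adjusted p = 0.0142). The call of Pim1 ended in a fit of the 2 groups (adjusted p = 0.0557) and without WT replicate 2 or Idh2R172K replicates 2 or 4 (0.0508 to 0.0602). Pim1 was the gene of this list called in Tet2KO (0.80, adjusted p = 0.047), and that call ended whichever of the WT or Tet2KO libraries was left out (0.0528 to 0.114). Without Tet2KO replicate 2, 9 genes of the list rose and 1 fell in Idh2R172K, beside 23.7% of all tested genes in either direction.

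The pathways of TEK, EPCR and ESAM held no fall in Idh2R172K. Of 6 tested genes of the angiopoietin and TEK pathway 3 rose (median 0.58), and 5 did so without Tet2KO replicate 2: beside Tek these were Tie1, higher by 1.15 (adjusted p = 0.00189), and Foxo1, a transcription factor downstream of AKT, higher by 0.58 (adjusted p = 0.0284). Foxo1 lost its call in several other fits, among them those that left out replicate 2 or 4 of WT or of Idh2R172K (adjusted p = 0.0709 to 0.109) and without the number 4 libraries (0.159). Of 5 tested genes of the EPCR pathway 2 rose (median 0.64), and 4 did so without Tet2KO replicate 2. S1pr1, a sphingosine phosphate receptor that acts downstream of activated protein C in endothelium, was higher by 1.31 (adjusted p = 4.56e-05), with 59.7, 67.0, 60.5 and 60.7 TPM in Idh2R172K, against 22, 24.3, 23.8 and 27.5 TPM in WT. F2r, the thrombin receptor PAR1, was higher by 0.87 (adjusted p = 0.0242), without a call when WT replicate 2 or 3 or Idh2R172K replicate 1 or 4 was left out (0.057 to 0.0674).

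Of 5 tested genes of the junctional adhesion family 3 rose (median 0.78). Beside Esam these were Tjp1, a scaffold protein of tight junctions, higher by 1.65 (adjusted p = 0.000654), and F11r, which encodes JAM-A, higher by 0.78 (adjusted p = 0.00385). Each of these 3 small lists holds a marker gene of its own (Tek, Procr or Esam), and 4 of 10, 4 of 9 and 7 of 12 listed genes were under the level for testing. In Tet2KO none of the 3 lists had a call with all libraries. Without replicate 2 each had 1, Tek (0.63), S1pr1 (0.48) and Esam (0.68), genes for which replicate 2 was the lowest Tet2KO pool. Of 9 tested SLAM family and adaptor genes 2 fell in Idh2R172K (median -0.05), Ly9 and Slamf8, the last at 0.234 TPM in Idh2R172K and 1.14 TPM in WT (adjusted p = 0.00799; 0.0504 without the number 4 libraries). In Tet2KO Sh2d1b1, a SLAM adaptor, was 0.46 higher (adjusted p = 0.0291), a call that ended without Tet2KO replicate 2 or 4 or WT replicate 1, 2 or 3 (0.0524 to 0.109).

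**Figure D5:**
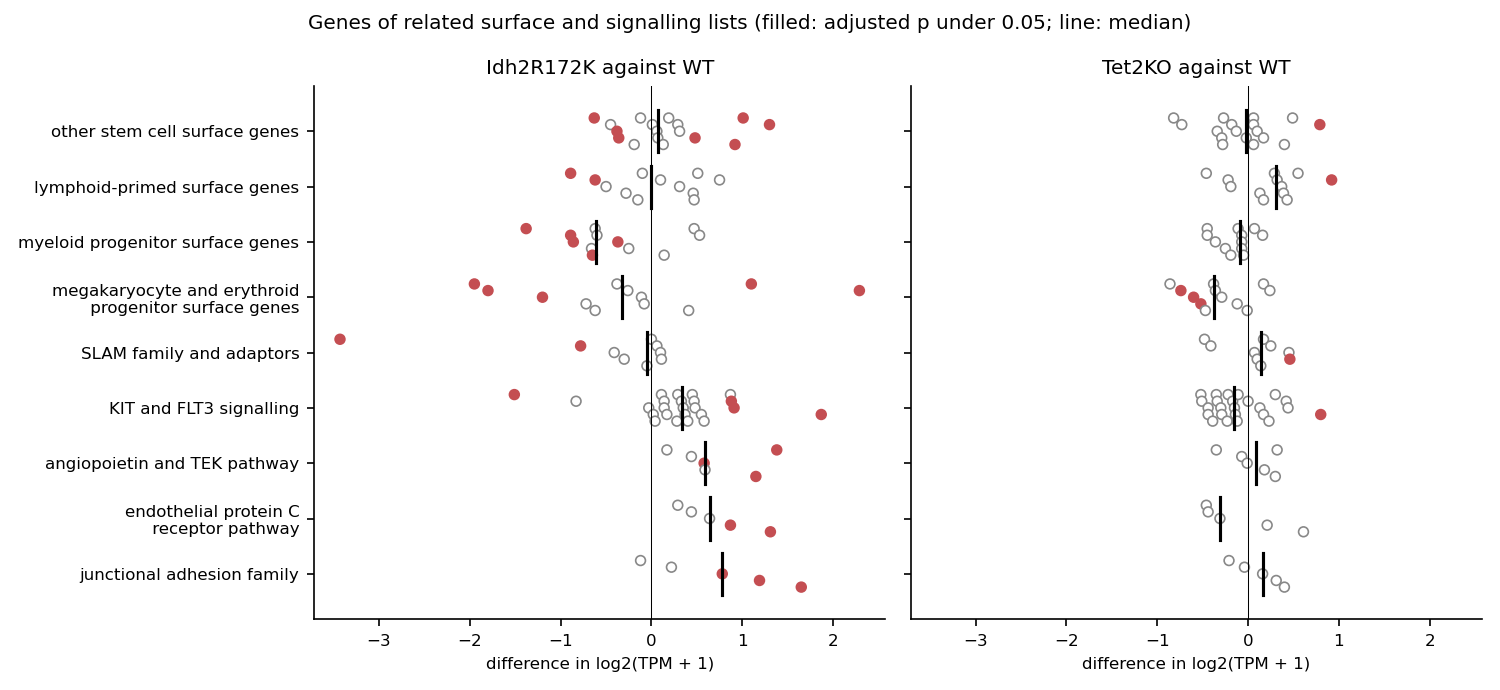
Difference in log2(TPM + 1) (x axis) of each tested gene of the 9 related lists for Idh2R172K against WT (left) and Tet2KO against WT (right); filled points have an adjusted p under 0.05 and the black line is the median of the list. In Idh2R172K the called genes of the TEK, EPCR and junctional lists lie to the right and those of the myeloid list to the left (median -0.61).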

How the data were processed

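The data are RNA-seq of LSK cells, with 4 pools of 2 mice in each of 5 groups (20 libraries). Per the submitters' processing notes, reads were trimmed with Trim Galore, aligned to mm10 with STAR and counted with featureCounts; versions, annotation release and strand setting are not given in the sources used here. The deposited values are TPM that sum to 1000000 in a library. Mutation and replicate number tied columns to samples; those of Idh2R140Q carry a prefix that names Idh1 with 140Q. Symbols, coordinates and exon lengths came from GENCODE M21 (45143 of 46078 IDs found, 935 not). Read depth and reads per gene were rebuilt from TPM times exon length for 42708 genes; 90.0 to 91.1% of low values per library (up to 30 reads) came out whole within 0.1 reads. TPM is a share, so a gene that takes more of a library lowers all others.

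Values were moved to log2(TPM + 1) and the 5 groups were fitted together in limma 3.58.1 (R 4.3.3), with a trend on intensity. Tests were 2-sided, with Benjamini-Hochberg adjustment over all 14176 genes that averaged 1 TPM or more, and the threshold for a call was an adjusted p of 0.05. All 10 pairs of groups were compared, and the mutant groups share the 4 WT libraries. The fit was checked on simulated data. Differences are on the log2(TPM + 1) scale, which understates those of low genes such as Slamf1. Further software was pandas 2.3.3, numpy 2.4.6 and matplotlib 3.10.9 under Python 3.11.15.

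The 8 genes and the 16 other lists were chosen with earlier results of these data known, so lists are described by counts and medians and not tested. The rule names the 8 genes, Ly6a, up to 3 called genes of smallest p per related list and mutant group, and the 3 genes most alike each marker (mean of at least 5 TPM, no unnamed gene models). Genes beside these were named after their values were seen, and some genes that the rule names are not reported here. Promoters are from RefSeq on GRCm38.p6. Alternatives comprised 31 planned fits, among them 20 that each left out 1 library, and 2 added after the data were seen.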

Additional observations from a re-analysis of the deposited data

Results flagged for a closer look

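Among 45 sets of 4 libraries (the 8 genes and Ly6a in 5 groups), 4 held a library that stood apart by Dixon's criterion, and chance alone gives about 1 in 20 sets. Cd34 in Tet2KO replicate 2 was 323.5 TPM, against 510.1 to 545 TPM in the other Tet2KO pools. Ly6a in the same library was 350.2 TPM, against 271 to 274 TPM. Procr in Idh2R172K replicate 4 was 45.8 TPM, against 24.9 to 28.3 TPM. Slamf1 in Idh2R140Q replicate 2 was 3.943 TPM, against 2.38 to 2.48 TPM. The Kit, Tek and Esam values of Tet2KO replicate 2 stayed within the criterion.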

How the results depend on the processing

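Esam, Tek and Flt3 were called in Idh2R172K against WT under all 33 alternatives, and no gene was called in Idh1R132H or Idh2R140Q against WT in any of them. In Idh2R172K the count of 3 became 5 in a fit of the 2 groups, with library weights and without Tet2KO replicate 2 and the number 4 libraries, and 3 to 5 with 1 library left out. In Tet2KO the count of 0 became 3 with library weights, 4 without those 5 libraries and 1 without the number 4 libraries alone (added after the data were seen), and 0 to 2 with 1 library left out. The 10 differences between mutant groups became 20 and 22 with weights and without those 5 libraries (9 to 16 with 1 left out), and the F test count of 3 became 6 and 6 (3 to 5). These counts stand without the share of all tested genes called in the same fits. Without Tet2KO replicate 2 alone, that share went from 15.4 to 23.7% in Idh2R172K against WT. In Tet2KO against WT it went from 7.05 to 7.04%. Whether the counts rose more than those of all tested genes was not tested.

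Direction turned only for differences that were called in no fit. With weights and without those 5 libraries, Tet2KO against WT turned to 0.15 and 0.10 for Kit (-0.68 to 0.06 with 1 library left out) and to 0.15 and 0.13 for Cd34 (-0.14 to 0.11 with 1 library left out, 0.02 in limma-voom). With the length trend removed, also added later, values were -0.03 for Kit and -0.05 for Cd34 in Idh1R132H, -0.02 for Cd34 and Tek in Idh2R140Q, and 0.06 for Cd34 and -0.12 for Cd48 in Tet2KO. Median-of-ratios scaling gave -0.02 for Cd34 and Cd48 in Idh1R132H, -0.02 for Tek in Idh2R140Q and -0.03 for Cd48 in Idh2R172K; limma-voom gave -0.02 and -0.01 for Cd34 and Cd48 in Idh1R132H. Without the number 4 libraries, with or without Tet2KO replicate 2, Cd48 was 0.02 in Idh2R140Q and Tek 0.07 in Idh1R132H. With 1 library left out, Idh1R132H values ran from -0.03 to 0.12 (Kit), -0.01 to 0.06 (Cd34 and Cd48), -0.20 to 0.07 (Flt3), -0.30 to 0.16 (Procr) and -0.15 to 0.03 (Tek), and Idh2R140Q values from -0.06 to 0.02 (Cd48), -0.04 to 0.13 (Tek) and -0.12 to 0.02 (Ly6a). The cause was not tested.

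Slamf1 drops out under a filter of 5 TPM. No label says that the replicate numbers pair libraries, and they were not taken as a pairing: 22 of 40 same-number pairs had a correlation over 0.1. The median was 0.14, against -0.04 for different numbers, and 0.43 for number 4; 14 of 20 libraries correlated best with their own number, a hint from the data and not the design. With the number as a replicate block, the counts were 3 in Idh2R172K and 0 in Tet2KO. They too stand without the share of all tested genes called in that fit. Depth limits Slamf1 most, at 106 reads in its lowest library. In the fit of all 20 libraries, a p-value sets a difference against the spread between pools, which the 5 groups share.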
